A study of Homo sapiens with 6 samples.

Results

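BMP and activin signalling was followed across 43 genes in CCD18Co, an established fibroblast line from human colon, after silencing of *LTBP2*. The genes were chosen by function and found by their symbol in the count table, by a rule that uses no measured value although earlier results of these data were known: 15 ligand genes, 10 receptors, 10 secreted antagonists and regulators, 4 SMADs and the 4 *ID* genes. All 43 were among the 60663 genes of the table, and 33 of them were among the 16920 genes that passed the filter on low counts and were tested. *LTBP2* encodes a latent TGF-beta binding protein of the extracellular matrix. Both groups held the same cell line in 3 libraries, and the groups differed in the siRNA: cells of the siLTBP2 group received a pool against *LTBP2* and those of the siNT group a non-targeting pool. Transfection lasted 6 h, and RNA was taken from cells frozen at 48 h. The labels number the libraries without saying that they came from separate cultures, so p-values measure only the spread between these libraries, which may be technical. Results hold for 1 line and 1 siRNA pool per group.

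Bone morphogenetic proteins (BMPs), most growth and differentiation factors and activins are secreted dimers of the TGF-beta superfamily. They bring together type I and type II receptor kinases, which phosphorylate SMAD1, SMAD5 and SMAD9 on the BMP side and SMAD2 and SMAD3 on the activin side. Antagonists such as noggin, gremlin and follistatin bind the ligands outside the cell, while SMAD6 and the decoy receptor BAMBI act against the signal at the receptor. The *ID* genes, inhibitors of DNA binding, are classical direct targets of BMP SMADs, and in the gut wall fibroblasts are known as a source of both BMPs and their antagonists.

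The libraries held 44663424 to 53576899 reads counted on genes. *LTBP2* itself was at 25.0, 23.1 and 21.2 counts per 1000000 reads (CPM, with libraries scaled by the TMM method of edgeR) in the siNT libraries and at 6.49, 8.61 and 6.00 CPM in the siLTBP2 libraries, a log2 fold change of -1.72 (standard error, SE, 0.15, and adjusted p = 6.6e-05 in the quasi-likelihood test of edgeR). All 10 fibroblast markers were tested, and their summed level was 9959 to 13220 CPM in siNT and 10100 to 14430 CPM in siLTBP2. Among them *PDGFRB* was lower in siLTBP2, without overlap (log2 fold change -0.60, adjusted p = 0.0025), and its part in the results was not tested. The 7 epithelial markers summed to at most 0.529 CPM and the 5 immune markers to at most 0.698 CPM in any library. Of 4 smooth muscle markers, *SMTN* and *ACTG2* were higher in siLTBP2, while *MYH11* and *DES* had at most 5 counts. The smooth muscle markers summed to between 219 and 246 CPM in siNT and between 382 and 422 CPM in siLTBP2, and their part in the results was not tested.

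The decoy receptor gene *BAMBI*, the ligand gene *BMP4* and the inhibitory SMAD gene *SMAD6* fell after silencing, to levels 2.98-fold, 2.32-fold and 1.94-fold lower. The gene of the extracellular BMP regulator *BMPER* rose 2.46-fold, and *FSTL3*, *ACVR2B* and *SMAD5* rose by less. The *ID* genes did not pass the test in either direction. Under other settings, such as the replicate number as a block, *ID1* was called higher and *ID2* and *ID4* were called lower. A gene was called at a Benjamini-Hochberg adjusted p below 0.05 over all 16920 genes. Of the 33 genes tested, 4 were called higher, beside 9.76% of all genes tested, and 3 were called lower, beside 9.51% of all genes. In both directions together, 21.2% of the tested members were called, beside 19.3% of all genes. These shares are near those of all genes, so the counts are no result about the genes as a group, and the values that follow describe single genes. The stricter threshold of the study was a change over 2-fold at an adjusted p below 0.01, applied there to a likelihood ratio test. Here 3 of the 33 tested members were deregulated by it in the quasi-likelihood test (*BMPER*, *BMP4* and *BAMBI*), beside 2.57% of all genes tested. The likelihood ratio test also gave 3, and so few genes are no result about the group. The libraries of the groups did not overlap for 13 of the 33, which is near the 37% of all genes tested. The median log2 fold change of the 33 was 0.115, with 19 positive, and that of all genes tested was -0.006.

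**Figure D1:**
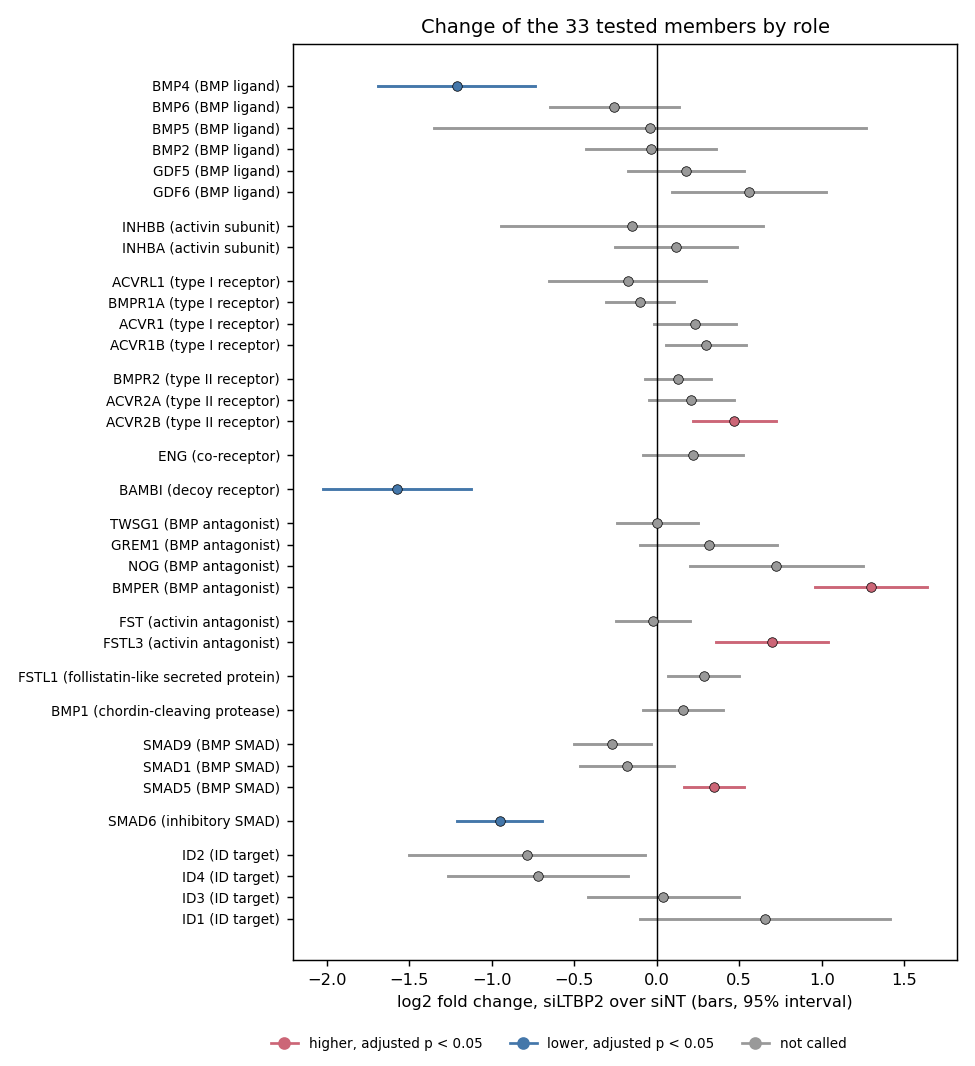
Log2 fold change of siLTBP2 over siNT for the 33 tested genes, grouped by role, with bars for the 95% interval. The 3 genes called lower (*BMP4*, *BAMBI* and *SMAD6*) lie between -1.58 and -0.95, the 4 called higher between 0.35 and 1.30, and the intervals of *ID1* and *ID3* cross 0.

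To compare genes with each other, counts were also divided by exon length and scaled to 1000000 per library (TPM). In siNT the most abundant member per length was *ENG*, the co-receptor endoglin, at 248 ± 53.7 TPM (SD, n = 3). *ID3* followed at 194 ± 47.2 TPM, *BAMBI* at 180.5 ± 40.1 TPM and *TWSG1* at 165 ± 21.9 TPM. These neighbours did not differ beyond their spread. *FSTL1* (138 ± 3.49 TPM) and *FST* (130 ± 14.8 TPM) came next, again within their spread. The ligands stood lower, with *GDF5* as the most abundant BMP ligand at 30.8 ± 4.67 TPM, then *GDF6*, *BMP2* and *BMP4* at 24.3 ± 7.94, 20.6 ± 4.30 and 15.3 ± 3.87 TPM. The tested BMP antagonist genes *NOG*, *GREM1*, *TWSG1* and *BMPER*, with the untested ones, summed to 199 ± 14.2 TPM in siNT and 221 ± 8.12 TPM in siLTBP2, and the BMP ligands to 103 ± 17.3 and 106 ± 20.2 TPM (SD, n = 3). Most of the antagonist sum was *TWSG1*, at 165 TPM in siNT and 162 TPM in siLTBP2. *NOG*, *BMPER* and *GREM1* were at 25.5, 5.90 and 2.42 TPM in siNT, so the order of these sums rests on *TWSG1*.

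**Figure D2:**
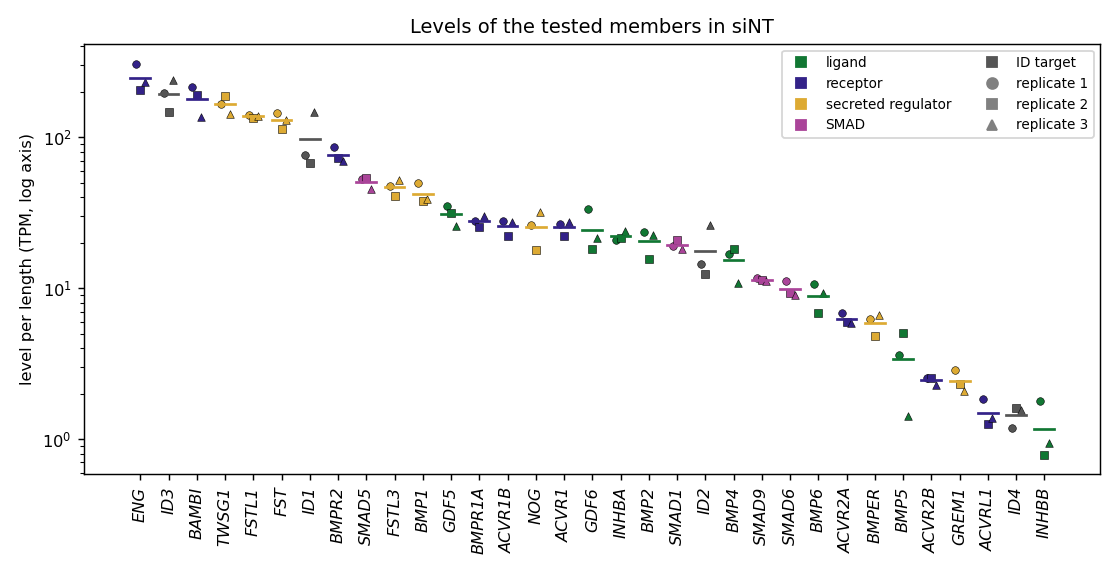
Level per exon length (TPM, log axis) of the 33 tested genes in the 3 siNT libraries, with a line at the mean and a colour for each class. Levels run from 248 TPM for *ENG* to 1.17 TPM for *INHBB*. The ligands all lie below the antagonists *TWSG1* and *FST*, while the antagonists *BMPER* and *GREM1* are at 5.90 and 2.42 TPM.

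The promoters of 4 members are shown because they carry, or lack, the letters of a known BMP SMAD element: *BAMBI* and *SMAD6*, which fell, *BMPER*, which rose most, and *ID1*, the best known target. The windows run from 250 bases before to 50 bases after the start site in RefSeq (GRCh38.p14), all on the plus strand, at chr10:28677271-28677570 for *BAMBI*, chr15:66701986-66702285 for *SMAD6*, chr7:33905289-33905588 for *BMPER* and chr20:31605039-31605338 for *ID1*. Capitals mark GGCGCC, which reads the same on both strands.
BAMBI: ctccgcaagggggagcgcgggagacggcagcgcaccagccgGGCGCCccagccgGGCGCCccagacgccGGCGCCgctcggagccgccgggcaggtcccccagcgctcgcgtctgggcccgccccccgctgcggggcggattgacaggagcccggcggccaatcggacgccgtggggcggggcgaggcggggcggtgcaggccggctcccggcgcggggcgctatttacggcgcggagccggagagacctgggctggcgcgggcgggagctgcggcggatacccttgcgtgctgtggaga
SMAD6: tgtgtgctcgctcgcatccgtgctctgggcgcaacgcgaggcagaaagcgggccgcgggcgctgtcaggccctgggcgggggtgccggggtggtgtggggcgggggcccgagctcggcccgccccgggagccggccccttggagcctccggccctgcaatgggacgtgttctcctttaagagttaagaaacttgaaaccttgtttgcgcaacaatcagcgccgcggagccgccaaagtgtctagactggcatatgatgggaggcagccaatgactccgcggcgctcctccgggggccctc
BMPER: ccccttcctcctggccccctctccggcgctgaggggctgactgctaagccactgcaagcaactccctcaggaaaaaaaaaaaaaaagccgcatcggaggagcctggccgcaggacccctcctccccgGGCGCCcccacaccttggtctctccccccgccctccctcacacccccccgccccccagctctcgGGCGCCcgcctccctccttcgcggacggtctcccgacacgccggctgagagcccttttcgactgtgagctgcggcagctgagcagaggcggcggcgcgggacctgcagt
ID1: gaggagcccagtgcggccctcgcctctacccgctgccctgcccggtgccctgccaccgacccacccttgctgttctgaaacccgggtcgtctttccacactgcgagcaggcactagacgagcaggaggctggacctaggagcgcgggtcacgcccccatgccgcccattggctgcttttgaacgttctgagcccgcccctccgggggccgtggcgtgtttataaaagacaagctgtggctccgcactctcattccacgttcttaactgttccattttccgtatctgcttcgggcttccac
*BAMBI* held 3 copies and *BMPER* 2, and *SMAD6* and *ID1* held none. Of the called genes not shown, *FSTL3* held 2 copies, *SMAD5* 1 and *ACVR2B* 0. *BMP4* held 2 in the window nearest its canonical start and none in its other windows. The start site of that nearest window lies 1775 bases from the canonical one. At least 1 copy was present in 6748 of 35116 RefSeq promoters (19.2%), at least 2 copies in 4.35% and at least 3 in 0.87%. Of 48 windows for 35 members with an entry, 17 held the letters (35.4%), and none of the windows of *ID1*, *ID2*, *ID3* and *ID4* did. Some genes have several windows, and by gene 15 of the 35 members held the letters in any window. Shares of members and of all promoters were not matched for their content of G and C. The shorter SMAD letters GTCT or AGAC were in 87.5% of the member windows and 84.0% of all promoters. GGCGCC followed after 5 bases by GTCT, on either strand, was in 0 of the 48 windows and in 36 of all promoters. Genes called higher and called lower were thus found both with and without GGCGCC in this window, which describes letters and not binding. Bases outside these windows were not searched, for *ID1* as for the other genes.

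Of the 15 ligand genes, 8 were tested and 1 was called. *BMP4* (chr14:53949736-53958761, minus strand), a BMP ligand of mesenchymal cells, was at 13.3, 14.9 and 9.14 CPM in siNT and at 5.21, 6.79 and 4.10 CPM in siLTBP2. Every siLTBP2 library lay below every siNT library. Its mean fell from 12.4 ± 2.97 to 5.37 ± 1.35 CPM (SD, n = 3), a log2 fold change of -1.21 (SE 0.22, 95% interval -1.69 to -0.74, adjusted p = 0.0033). Leaving out each library in turn gave -1.42 to -1.05, and the gene was called each time. A long non-coding RNA gene that overlaps it on the other strand had at most 1 count in any library.

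The other BMP ligands tested were *GDF6* at 0.56, *GDF5* at 0.18, *BMP2* at -0.04, *BMP5* at -0.04 and *BMP6* at -0.26 on the log2 scale, with adjusted p-values from 0.091 to 0.97. *GDF6*, a ligand known from joint and skeletal development, had 31.6, 17.9 and 21.6 CPM in siNT and 44.9, 29.0 and 30.8 CPM in siLTBP2, so its groups overlapped. It was called by DESeq2 (adjusted p = 0.029). *BMP5* was the least steady ligand, from 1.54 to 5.31 CPM in siNT and from 0.645 to 5.54 CPM in siLTBP2. In both groups its lowest library was replicate 3. *GDF5*, another ligand of joint development, averaged 21.3 ± 2.63 CPM in siNT against 24.1 ± 5.28 CPM in siLTBP2, and *BMP6*, known from iron metabolism, 8.89 ± 1.79 against 7.43 ± 1.22 CPM (SD, n = 3). *BMP2* averaged 19.2 ± 3.94 CPM in siNT against 18.7 ± 3.98 CPM in siLTBP2 (SD, n = 3). The activin subunit gene *INHBA* averaged 48.4 ± 5.21 CPM in siNT against 52.4 ± 14.8 CPM in siLTBP2 (SD, n = 3). Its log2 change was 0.12 (95% interval -0.26 to 0.49, adjusted p = 0.69). *INHBB*, the other activin beta subunit, averaged 0.985 CPM in siNT against 0.889 CPM in siLTBP2. The ligand genes *BMP3*, *BMP7*, *BMP8A*, *BMP8B*, *GDF7*, *GDF10* and *INHBE* were not tested, since none had more than 15 counts in any library, and *BMP7* and *GDF10* had 0 counts in all 6. *BMP8A* and *BMP8B* are near-identical copies, so their few counts are uncertain.

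Of the 10 receptor genes, 9 were tested, 1 was called higher and 1 lower. *BAMBI* (chr10:28677510-28682932, plus strand) encodes a membrane protein that resembles a type I receptor without the kinase, and BMP and TGF-beta signals are known to induce it. It was at 117, 109 and 78.8 CPM in siNT and at 39.2, 39.7 and 23.2 CPM in siLTBP2. The groups were far apart, and replicate 3 was the lowest in both. Its mean fell from 101.4 ± 19.96 to 34.0 ± 9.43 CPM (SD, n = 3), a log2 fold change of -1.58 (SE 0.20, 95% interval -2.02 to -1.13, adjusted p = 0.00054). Per length, *BAMBI* went from 180.5 to 59.4 TPM, from above to below the mean of the type II receptor gene *BMPR2*, which was at 76.3 TPM in siNT and 81.6 TPM in siLTBP2. With any 1 library left out its log2 fold change ranged from -1.73 to -1.36, and it was called each time.

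The type II receptors bind activins and BMPs. *ACVR2B* (chr3:38453890-38493142, plus strand) was at 10.2, 10.5 and 9.72 CPM in siNT and 13.6, 13.0 and 15.5 CPM in siLTBP2, without overlap. It rose from 10.1 ± 0.376 to 14.0 ± 1.29 CPM (SD, n = 3), a log2 fold change of 0.47 (SE 0.12, adjusted p = 0.016). Without siNT replicate 3 it was no longer called (0.44, adjusted p = 0.055). Its close relative *ACVR2A* had a log2 fold change of 0.21 (adjusted p = 0.24), also without overlap, and its exons overlap those of *ORC4* on the other strand. *BMPR2*, at 251 CPM in siNT against 275 CPM in siLTBP2, had a log2 fold change of 0.13 (adjusted p = 0.37). The type I receptors gave 0.30 for *ACVR1B*, 0.23 for *ACVR1*, -0.10 for *BMPR1A* and -0.18 for *ACVRL1*, with adjusted p-values from 0.085 to 0.62. *ACVR1B*, the activin type I receptor, averaged 38.4 ± 4.79 CPM in siNT against 47.2 ± 3.81 CPM in siLTBP2 (SD, n = 3), without overlap, and *ACVR1* 66.0 ± 8.27 against 77.5 ± 8.37 CPM. *BMPR1A*, a BMP type I receptor, averaged 73.9 ± 7.49 against 68.9 ± 2.74 CPM, and *ACVRL1* only 2.18 ± 0.397 against 1.93 ± 0.350 CPM. *ACVR2A* averaged 10.6 ± 0.646 CPM in siNT against 12.3 ± 0.996 CPM in siLTBP2. *ENG*, which averaged 251 ± 47.9 against 291 ± 33.9 CPM, gave 0.22 (adjusted p = 0.31). *BMPR1B* had at most 1 count in any library and was not tested.

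Of the 10 secreted antagonists and regulators, 8 were tested, 2 were called higher and none lower. *BMPER* (chr7:33904308-34156427, plus strand), the human crossveinless-type protein that binds BMPs outside the cell and is known both to block and to aid their signal, was at 12.7, 10.2 and 14.3 CPM in siNT and at 27.2, 27.7 and 36.8 CPM in siLTBP2. All siLTBP2 libraries exceeded all siNT libraries. Its mean rose from 12.4 ± 2.06 to 30.6 ± 5.40 CPM (SD, n = 3), a log2 fold change of 1.30 (SE 0.15, 95% interval 0.96 to 1.64, adjusted p = 0.00034). It was called with any 1 library left out, between 1.15 and 1.42. Per length it was at 5.90 TPM in siNT and 14.2 TPM in siLTBP2, still below *NOG*, at 25.5 and 41.0 TPM.

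*FSTL3* (chr19:676392-683392, plus strand), a follistatin relative that binds activins and myostatin, was at 36.8, 32.8 and 42.7 CPM in siNT and 53.4, 51.9 and 76.9 CPM in siLTBP2. The groups did not overlap, and replicate 3 was the highest in both. It rose from 37.4 ± 4.97 to 60.7 ± 14.0 CPM (SD, n = 3), a log2 fold change of 0.70 (SE 0.16, adjusted p = 0.010), and was not called without siNT replicate 2 (0.61, adjusted p = 0.056). Follistatin itself, *FST*, averaged 94.0 CPM in siNT against 92.7 CPM in siLTBP2, a log2 fold change of -0.02 (95% interval -0.24 to 0.20, adjusted p = 0.92). Per length *FST* remained above *FSTL3* in siLTBP2, at 125 ± 9.20 against 74.0 ± 14.8 TPM (SD, n = 3).

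*NOG*, the noggin gene, was at 12.8, 9.09 and 16.7 CPM in siNT and 17.6, 17.2 and 28.9 CPM in siLTBP2. The groups did not overlap, by a narrow margin, and the log2 fold change of 0.72 did not pass the test (adjusted p = 0.056). It did pass by DESeq2 (adjusted p = 0.008) and in the likelihood ratio test (adjusted p = 0.020). *GREM1*, a gremlin gene known from colon mesenchyme, had a log2 fold change of 0.31 (adjusted p = 0.28) at 9.41 CPM in siNT against 11.7 CPM in siLTBP2. *TWSG1*, the twisted gastrulation gene, which modulates chordin and BMPs, averaged 193 CPM in siNT against 194 CPM in siLTBP2 (log2 fold change 0.00, 95% interval -0.24 to 0.25, adjusted p = 0.99). *FSTL1*, at 342 and 416 CPM, gave 0.29 (adjusted p = 0.066, and 0.041 by DESeq2), and *BMP1*, a protease that cleaves chordin and procollagens, gave 0.16 (adjusted p = 0.36) with means of 78.3 and 87.4 CPM. *CHRD* and *CHRDL1*, the chordin genes, had at most 10 counts in any library and were not tested.

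**Figure D3:**
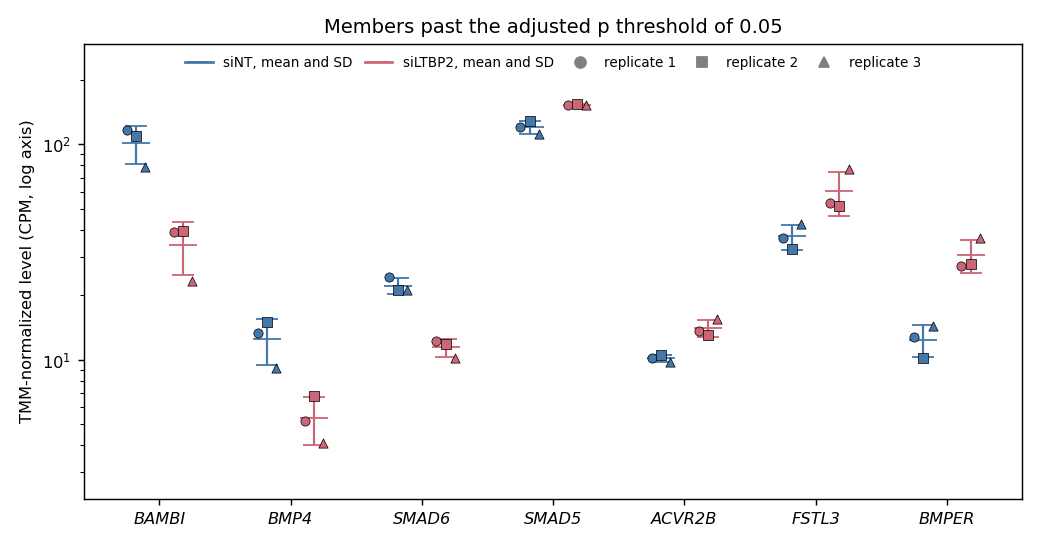
TMM-normalized level (CPM, log axis) of the 7 called genes in each library, with the mean and SD of 3 libraries per group. The siNT and siLTBP2 points are apart for every gene shown, with the widest gap on the log axis for *BAMBI* and *BMPER*.

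All 4 SMAD genes were tested. *SMAD6* (chr15:66702236-66782849, plus strand), the inhibitory SMAD of the BMP side and itself a known target of BMP signals, was at 24.3, 21.0 and 21.0 CPM in siNT and 12.2, 11.8 and 10.2 CPM in siLTBP2. Its libraries were tight within each group. The mean fell from 22.1 ± 1.93 to 11.4 ± 1.07 CPM (SD, n = 3), a log2 fold change of -0.95 (SE 0.12, 95% interval -1.21 to -0.70, adjusted p = 0.00039). It was called with any 1 library left out, between -1.003 and -0.874. *SMAD5* (chr5:136132845-136188747, plus strand) was at 121, 128 and 112 CPM in siNT and 152, 154 and 153 CPM in siLTBP2, all higher. It rose from 120 ± 7.95 to 153 ± 1.08 CPM (SD, n = 3), a log2 fold change of 0.35 (SE 0.08, adjusted p = 0.014). It was not called without siNT replicate 3 (0.30) or without siLTBP2 replicate 2 (0.34), each with an adjusted p of 0.063. *SMAD9* and *SMAD1* had log2 fold changes of -0.27 (adjusted p = 0.10) and -0.18 (adjusted p = 0.38), so the 3 BMP SMAD genes differed in sign, and *SMAD5* was the most abundant of them per length in both groups, at 50.6 and 62.9 TPM. *SMAD9* averaged 17.9 ± 0.181 CPM in siNT against 14.8 ± 1.28 CPM in siLTBP2 (SD, n = 3), without overlap, and *SMAD1* 36.4 ± 2.67 against 32.1 ± 5.70 CPM.

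The 4 *ID* genes were not called in the main test, the quasi-likelihood test of all 6 libraries with the low-count filter and no block. The calls of *ID1*, *ID2* and *ID4* depended on the processing. *ID1* was at 24.1, 22.1 and 48.7 CPM in siNT and 32.6, 39.0 and 78.0 CPM in siLTBP2. Replicate 3 stood above the other libraries in both groups, and the groups overlapped. The log2 fold change of *ID1* was 0.66 (SE 0.34, 95% interval -0.10 to 1.41, adjusted p = 0.22). *ID2* was at 8.22, 7.23 and 15.8 CPM in siNT and 4.04, 5.18 and 8.82 CPM in siLTBP2, with replicate 3 again the highest, and had a log2 fold change of -0.79 (95% interval -1.50 to -0.07, adjusted p = 0.12). *ID3*, the most abundant per length, was at 74.7, 57.9 and 97.7 CPM in siNT and 63.2, 68.7 and 105 CPM in siLTBP2, a log2 fold change of 0.04 (95% interval -0.42 to 0.50, adjusted p = 0.92). *ID4* was near 1 CPM, from 1.17 to 1.64 CPM in siNT and from 0.761 to 1.12 CPM in siLTBP2, and its log2 fold change of -0.72 did not pass the test although the groups were apart (adjusted p = 0.065). Changes of 2-fold in *ID1* and *ID2* lie within these intervals. Without siNT replicate 3 *ID1* was called (1.11, adjusted p = 0.030), and without siLTBP2 replicate 3 so were *ID2* (-1.17, adjusted p = 0.013) and *ID4* (-0.92, adjusted p = 0.040). For *ID1* and *ID2* replicate 3 was the highest library of both groups, so leaving it out of 1 group alone unbalanced the comparison. Between same-numbered libraries the log2 differences were 0.44, 0.82 and 0.68 for *ID1* and -1.02, -0.48 and -0.84 for *ID2*. They were -0.24, 0.25 and 0.1 for *ID3* and -0.54, -1.11 and -0.54 for *ID4*. With the replicate number as a block, *ID1* (adjusted p = 1.5e-07), *ID2* (4e-06) and *ID4* (0.014) were called. With all 6 libraries kept and no low-count filter, *ID1* (adjusted p = 6.6e-07), *ID2* (adjusted p = 8.9e-06) and *ID4* (adjusted p = 0.043) were called too, and the likelihood ratio test called *ID4* (adjusted p = 0.034). Dropping the filter moved adjusted p-values strongly at near-equal fold changes, from 0.00054 to 5.2e-44 for *BAMBI* and from 0.37 to 0.63 for *BMPR2*. With the block, the adjusted p of *BAMBI* went to 3e-16 at a log2 fold change of -1.595. Adjusted p-values without the filter or with the block are thus not comparable with those of the main test. Over all 33 genes tested, replicate 3 was the highest library of both groups for 11, replicate 1 for 9 and replicate 2 for 6, and replicate 3 was the lowest of both for 8.

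**Figure D4:**
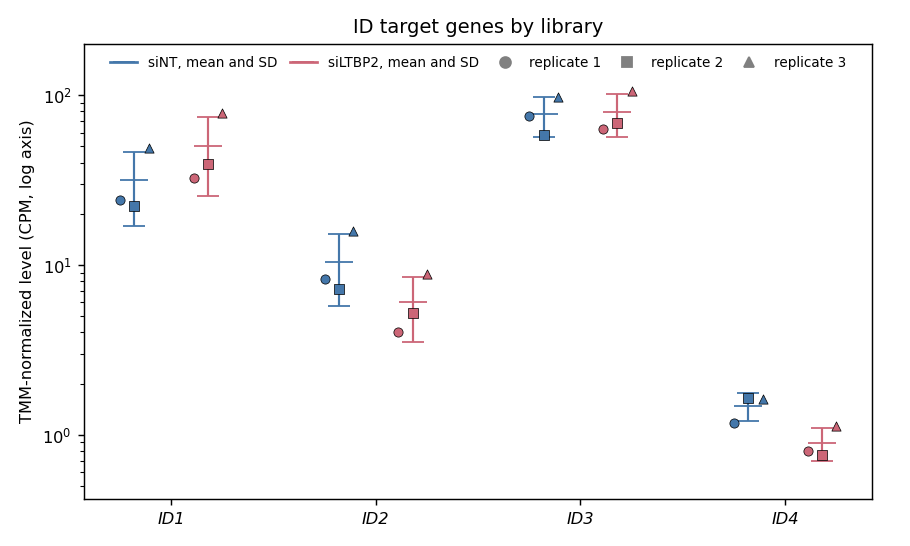
TMM-normalized level (CPM, log axis) of *ID1*, *ID2*, *ID3* and *ID4* in each library, with the mean and SD of 3 libraries per group. Replicate 3, the triangle, is the highest point of both groups for *ID1*, *ID2* and *ID3*.

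A further 70 genes of the TGF-beta superfamily pathway were listed beside the 43, by function. Of the 38 tested, 1 was called higher and 5 were called lower (15.8% of those tested, beside 19.3% of all genes), none was deregulated by the stricter threshold (2.57% of all genes), and their median log2 fold change was 0.02. *GDF11*, a ligand of the activin type, was at 80.1, 74.8 and 78.5 CPM in siNT and 51.7, 51.8 and 47.7 CPM in siLTBP2, a log2 fold change of -0.63 (SE 0.08, adjusted p = 0.00056). *FURIN*, the protease that cleaves many of these ligands from their precursors, was at 141, 103 and 135 CPM in siNT and 69.9, 72.1 and 69.3 CPM in siLTBP2, a log2 fold change of -0.84 (SE 0.12, adjusted p = 0.00073). *SMAD3*, the activin and TGF-beta SMAD, fell from 342 ± 33.1 to 236 ± 9.07 CPM (SD, n = 3), a log2 fold change of -0.54 (adjusted p = 0.0031). These calls held with any 1 library left out.

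The calls of *SKIL* and *TGFBR3* depended on single libraries. *SKIL*, a repressor of SMAD activity, had a log2 fold change of -0.36 (adjusted p = 0.042) and kept its call only without siLTBP2 replicate 3. *TGFBR3*, the co-receptor betaglycan, rose from 82.9 ± 11.3 to 106 ± 2.26 CPM (SD, n = 3), with a log2 fold change of 0.36 (adjusted p = 0.035), and was not called without siNT replicates 2 or 3 or siLTBP2 replicates 1 or 2. Of 12 further transcriptional targets of BMP signals, such as *MSX1*, *MSX2*, *HEY1* and *ATOH8*, 8 were tested. None was called, beside 19.3% of all genes, and 8 genes are too few for a result about such targets. Their log2 fold changes ran from -0.64 for *DLX2* (adjusted p = 0.057) to 0.81 for *HEY1* (adjusted p = 0.20). *SMAD7*, the inhibitory SMAD of the whole superfamily, had a log2 fold change of -0.44 (adjusted p = 0.33).

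Endoglin and *ACVRL1* are best known from endothelium, where *TEK* is also expressed. Here *TEK* averaged 74.2 ± 7.85 CPM in siNT against 68.0 ± 7.79 CPM in siLTBP2 (SD, n = 3), while the endothelial markers *PECAM1*, *CDH5*, *KDR* and *CLDN5* were below 1 CPM. *VWF* averaged 1.58 CPM in siNT against 0.968 CPM in siLTBP2, without overlap (log2 fold change -0.71, adjusted p = 0.065). The 6 endothelial markers summed to 67.5 to 83.6 CPM in siNT and 59.9 to 74.3 CPM in siLTBP2. In bulk RNA fewer cells of a type and less RNA per cell cannot be told apart.

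The word GCACCCA, known from earlier results of these libraries in 3′ untranslated regions, was looked up in the canonical GENCODE 44 transcripts. It was present in 1455 of 12314 tested genes with such a region (11.8%) and in 2 of the 33 tested members (6.1%), in 0 of the 3 called lower and 1 of the 4 called higher. The sites are shown with 10 bases on each side, plus strand, and the word in capitals, at chr3:38486304-38486330 in *ACVR2B* and chr15:32731249-32731275, chr15:32744124-32744150 and chr15:32744727-32744753 in *GREM1*.
ACVR2B: ggtgtaaagtGCACCCAtcaggtggta
GREM1, site 1: aaatccaggtGCACCCAgcatgtccta
GREM1, site 2: gaatggagaaGCACCCAaaaatctgtg
GREM1, site 3: gtacaatcaaGCACCCAaactggttct
*BAMBI*, *BMP4* and *SMAD6*, the members that fell, lacked the word, and *ACVR2B*, which rose, held 1 copy. Counts of 0 of 3 and 1 of 4 are too small to set against the 11.8% of all genes, so they are no result about these members.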

How the data were processed

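RNA sequencing of 6 libraries of CCD18Co cells was used, 3 siNT and 3 siLTBP2, grouped by their titles. The authors deposited raw counts per gene from stranded, ribosomal RNA depleted libraries. The submitters' processing notes name bcl2fastq, STAR 2.7.1a, HTSeq 0.11.2 and GRCh38, and the study aligned paired reads in 2 passes. Whether HTSeq counted by strand is not given in the sources used here.

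Counts were tested in R 4.3.3 with edgeR 4.0.16 (filterByExpr, TMM scaling, the two-sided quasi-likelihood F test, without a block), and p-values were adjusted over all genes tested. A standard error was taken as the size of the log2 fold change over the root of F. TPM used exon lengths of GENCODE 44, where 60462 identifiers were found and 95.7% have the same start. Alternatives were the likelihood ratio test, DESeq2 1.42.0, other scalings, other filters, a stricter threshold and leaving out each library. With 3 libraries against 3, an exact permutation test of a single gene cannot go below p = 0.1, so none was used. Libraries of one group differed by more than sampling noise (chi-square per degree of freedom from 27.73 to 55.1). Depth limits the precision of genes near 1 CPM.

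Members and lists were chosen with earlier results of these data known. Values by library are given for members and listed pathway genes that passed the adjusted p of 0.05, and also for *GDF6*, *NOG* and the *ID* genes, which, like *SMAD7* and *TEK*, were chosen after their values were seen. The values of 1 called pathway gene are not reported here. The steps were tested on simulated data.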

Additional observations from a re-analysis of the deposited data

How the results depend on the processing

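The calls of *BMPER*, *BAMBI*, *BMP4* and *SMAD6* held under every alternative run at an adjusted p of 0.05. The number of members called higher, 4, became 6 with the likelihood ratio test, 7 with DESeq2, 10 with no low-count filter, 12 with the replicate number as a block and 1 at an adjusted p of 0.01, and ranged from 3 to 5 with 1 library left out. The number called lower, 3, became 5 with no filter and 6 with the block, and ranged from 3 to 5 with 1 library left out (5 without siLTBP2 replicate 3). Deregulated members ranged from 2 to 4 with 1 library left out. The other pathway genes called, 6, became 10 with no filter and 14 with the block, and ranged from 3 (without siLTBP2 replicate 1 or 2) to 8. Over all genes, calls rose from 3261 to 6131 with the block. Same-numbered libraries correlated at 0.30, 0.08 and 0.43 in their deviations from the group means. Replicate 1 of siNT correlated at -0.28 with replicate 3 of siLTBP2, and replicate 3 of siNT at -0.39 with replicate 1 of siLTBP2. Within a group the deviations from the mean cancel out, so these correlations are not independent of each other. Whether the numbers are pairs was not tested. The labels do not say that the numbers are pairs, so the main test used no block. Replicates 1 and 3 of siNT correlated best with their own number in siLTBP2, and replicate 2 with replicate 1 (0.10).

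*TWSG1* changed sign with upper-quartile scaling (-0.003), total counts (-0.038) and no filter (-0.009). Signs also changed with 1 library left out, over ranges of -0.216 to 0.089 for *BMP2*, -0.600 to 0.462 for *BMP5*, -0.139 to 0.242 for *INHBA*, -0.524 to 0.240 for *INHBB*, -0.070 to 0.105 for *TWSG1*, -0.102 to 0.044 for *FST* and -0.217 to 0.254 for *ID3*. None of these was called. With the block, *ID1* (adjusted p = 1.5e-07), *ID2* (4e-06), *ID4* (0.014), *NOG* (4.3e-07), *GDF6* (1.2e-06), *FSTL1* (0.0034), *ACVR1*, *ACVR1B*, *ENG*, *GREM1* and *SMAD9* were called. With no filter, *NOG* (3e-06) and *GDF6* (0.00013) were, and *FSTL1* passed in the likelihood ratio test (0.043). *GDF6* was also called without siNT replicate 1 (0.81, adjusted p = 0.018), and *NOG* without siNT replicate 3 (0.96, adjusted p = 0.020) or siLTBP2 replicate 1 (0.84, adjusted p = 0.041). The causes were not tested.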
